A study of Sus scrofa with 11 samples.

Results

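The cell cycle genes on the array numbered 68, read by 94 probe sets, out of 6765 genes that had a probe set with a single gene symbol. They were chosen by symbol: cyclins of the A, B, D and E classes, genes whose symbol begins with CDK, CDC or KIF and a digit or with CKS, E2F, CENP, BUB, AURK or PLK, the MCM helicase genes, and PCNA, TOP2A, BIRC5, MAD2L1, RRM1 and RRM2. BIRC5 and MAD2L1 are thus in the set by name, and the study had reported both from these pigs. A gene with several probe sets was read by the one with the highest mean level. Of the 68 genes, 12 act at the G1/S transition and in DNA replication and 24 act in G2 and mitosis. The remaining 32 were matched by name alone and placed in neither phase. They include the CDC42 group of cytoskeletal signalling genes and the transport kinesins, but also genes tied to the cycle, such as CDK2AP2, which binds CDK2. CDK1, BUB1 and CCNE1 were not among the genes matched. The 2 probe sets of CDK6 list 2 gene IDs and the 2 of CENPP also list IPPK, and these 4 were not used.

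RNA came from the *M. semimembranosus*, a hind leg muscle, of 11 purebred Duroc gilts, and each pig had its own Affymetrix porcine array. The 6 HP pigs were fed a high protein diet with 217 g/kg crude protein and 13.0 g/kg lysine, and the 5 LP pigs a low protein diet with 128 g/kg crude protein and 7 g/kg lysine, both from about 10 weeks of age for 63 days. The diets were formulated to the same energy density, with wheat in place of soyabean meal in the LP diet. The gilts were blocked on initial weight and kept in 2 pens, but no source used here ties a pig to a block, a pen or a slaughter date, and these cannot be told apart from diet.

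A dividing cell copies its DNA in S phase and parts the copies in mitosis, and each step is driven by a cyclin bound to a cyclin-dependent kinase. At G1/S, cyclin D and E complexes release E2F transcription factors, which switch on the MCM helicase, PCNA and ribonucleotide reductase. In G2 and mitosis, cyclins A and B, the Aurora and Polo kinases, the spindle checkpoint and the anaphase-promoting complex order the parting of chromosomes at the centromere. Muscle fibres no longer divide, and in growing muscle the dividing cells are satellite cells and cells of the connective tissue, vessels, fat and blood. In a whole-muscle sample, fewer dividing cells and less RNA per dividing cell cannot be told apart.

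The samples carried the markers of muscle, since all 11 measured muscle fibre genes lay above the negative controls on all arrays, and their mean log2 level per array ran from 12.9 to 13.9 in HP and from 13.1 to 13.5 in LP. All 11 array medians were 6.72. The values are log2 expression levels, and a difference is LP minus HP on that scale. Above background means a level higher than all 23 negative controls of the same array, and the top control ran from 1.96 to 3.58 over the arrays. The upper end of the scale was brightest in HP replicates 1, 2 and 4, whose 99th percentiles of 13.1, 13.2 and 13.3 compare with 12.5 to 12.9 on the other arrays. Hybridisation spike-ins averaged 0.26 lower in LP (exact permutation p = 0.186), and the 3′ minus 5′ signal of actin, a measure of RNA integrity, was 0.43 lower (exact permutation p = 0.123). The spike-ins and the 99th percentile were on average lower in LP, the same direction as the genes lower in LP. The actin signal is a contrast and not a level, and its 3′ excess, which grows as RNA degrades, was smaller in LP. The part of these features in the gene differences was not tested.

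At an unadjusted limma p of 0.05 or less, 4 of the 36 G1/S and G2/M genes were lower in LP and none was higher. CDK2, which drives entry into S phase, was 1.40-fold lower. The CDK subunit CKS2 was 1.43-fold lower, the spindle checkpoint gene MAD2L1 1.44-fold lower, and BIRC5, which holds the chromosomal passenger complex at the centromere, 1.27-fold lower. No gene of the 68 passed after Benjamini-Hochberg adjustment in limma (smallest adjusted p = 0.864), and none of the 23999 probe sets did (smallest adjusted p = 0.644). Before adjustment 1227 probe sets passed, 5.11%. CDK2, CKS2, BIRC5, MAD2L1, AURKA, MCM5 and CCNB1 are also named by the study from these same pigs, so their direction here is not independent of it.

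Among all 6765 genes, 3.16% were called lower and 1.57% higher. In the G1/S genes 1 of 12 was lower (8.33%), in the G2/M genes 3 of 24 (12.5%), so that these shares rest on single genes. Differences lay below 0 for 9 of 12 G1/S genes and 17 of 24 G2/M genes, where 57.5% of all genes did. The median difference was -0.12 over the G1/S genes and -0.17 over the G2/M genes, beside -0.04 over all genes. Genes above background on all arrays ran from -0.34 to 0.30 between the 5th and the 95th percentile. The 4 lower genes lay outside this range, and so did MCM5, MCM3, CCNB1 and TOP2A below it and CCND2 above it, which did not pass. Whether the phases differ from each other was not tested.

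**Figure D1:**
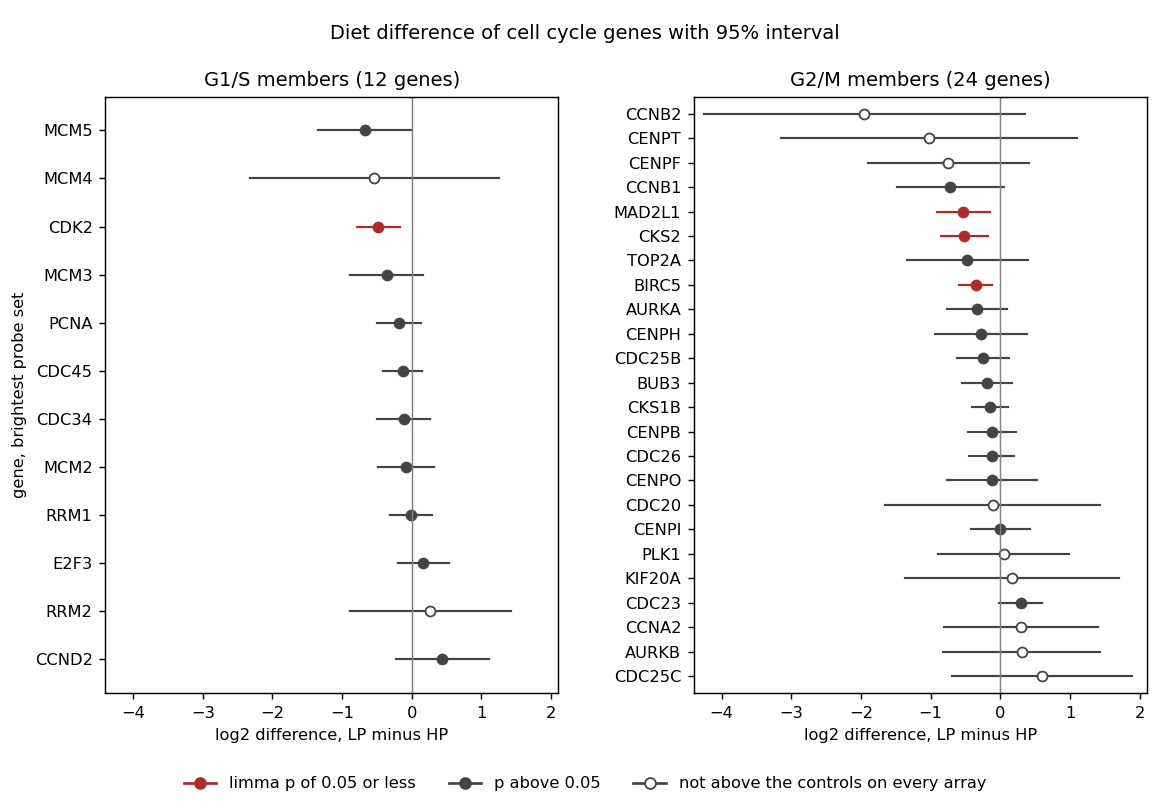
LP minus HP on the log2 scale for each G1/S (left) and G2/M (right) gene, with points for the difference and bars for its 95% interval from the limma fit. Filled red points are the 4 genes at p of 0.05 or less, all below 0, and open points are genes that were not above the negative controls on every array, among which CCNB2, CENPT and MCM4 have wide intervals.

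Of the G1/S genes 10 of 12 lay above background on all 11 arrays, and of the G2/M genes 15 of 24 did. RRM2 and MCM4 among the former, and CENPF, AURKB, PLK1, CCNA2, KIF20A, CDC20, CDC25C and CCNB2 among the latter, were above it on some arrays, and CENPT on none. The dim genes include mitotic genes at or near the negative controls in both diets. Their values set only a weak limit on any difference between diets.

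**Figure D2:**
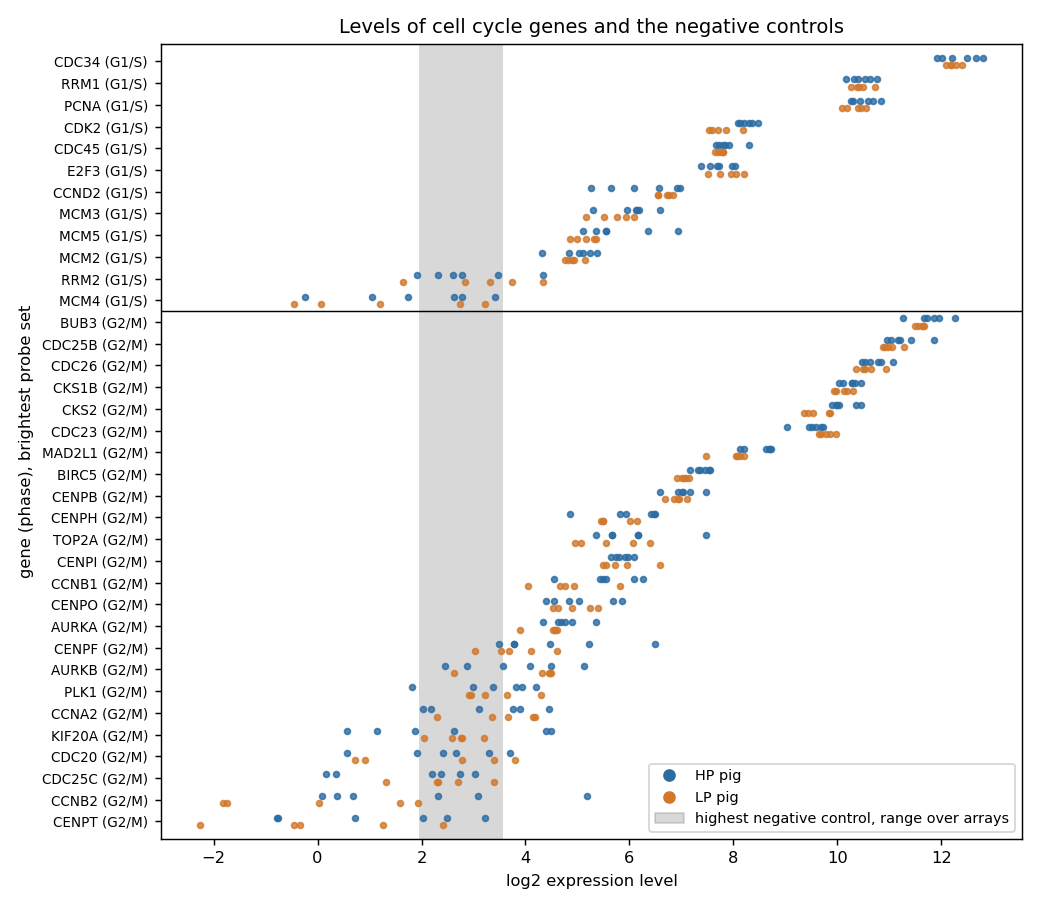
Log2 expression level of each G1/S and G2/M gene in each pig, HP in blue and LP in orange, with the grey band showing the range over arrays of the highest negative control (1.96 to 3.58). Levels of different genes come from different probes and are not comparable, and genes in or left of the band are at background on some or all arrays.

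Among the kinase, cyclin and E2F genes of G1/S, CDK2 alone passed. Its levels in HP replicates 1 to 6 were 8.12, 8.47, 8.21, 8.36, 8.29 and 8.08. Those of LP replicates 1 to 5 were 8.18, 7.59, 7.53, 7.70 and 7.85. LP replicate 1 lay within the HP range, and the other LP pigs lay below every HP pig. The means were 8.26 ± 0.15 (SD, n = 6) in HP and 7.77 ± 0.26 (SD, n = 5) in LP, a difference of -0.48 (SE 0.14, limma p = 0.00561, exact permutation p = 0.00866). CDK2 has dimmer probe sets that differed by -0.28 (exact permutation p = 0.318) and 0.39 (exact permutation p = 0.643), the second above background on 2 HP arrays and no LP array. With all 3 averaged, CDK2 differed by -0.13 and did not pass.

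CCND2, the cyclin D2 that couples growth signals to the cycle, differed by 0.44 (95% interval -0.23 to 1.11, exact permutation p = 0.216). HP pigs spread from 5.26 to 6.98, while the 5 LP pigs lay between 6.55 and 6.84, and without HP replicate 1, the lowest, the difference was 0.24. E2F3, a transcription factor that turns on S phase genes, differed by 0.17 (-0.20 to 0.53), and CDC34, a ubiquitin-conjugating enzyme that helps remove CDK inhibitors, by -0.12 (-0.50 to 0.27). None of these passed.

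Of the 8 replication genes of G1/S, RRM2 alone had a difference above 0, and none passed. PCNA, the sliding clamp of the DNA polymerases, stood at 10.60, 10.84, 10.29, 10.68, 10.27 and 10.44 in the HP pigs. In the LP pigs it stood at 10.45, 10.08, 10.19, 10.40 and 10.56. The diets overlapped over most of their range, and the difference was -0.19 (SE 0.14, limma p = 0.223, exact permutation p = 0.186). MCM5, a subunit of the replicative helicase, came nearest to the threshold at -0.67 (SE 0.31, limma p = 0.0514, exact permutation p = 0.0563). All 5 LP pigs lay below its HP mean of 5.81, but HP replicates 2 and 3, at 6.92 and 6.36, stood above the remaining HP pigs. Without HP replicate 2 the MCM5 difference was -0.45, and without HP replicate 4 (-0.76) or 5 (-0.81) it passed. Dimmer MCM5 probe sets differed by -0.99 (above background on 1 HP array and no LP array) and 0.03 (on no array).

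MCM3 and MCM2, of the same helicase, differed by -0.36 (95% interval -0.88 to 0.16) and -0.08 (-0.48 to 0.33). MCM3 passed without HP replicate 4 (-0.51), and its difference ran from -0.51 to -0.23 with single arrays left out. Dimmer MCM2 probe sets differed by -0.03 and 0.38, the second above background on 1 HP array and 2 LP arrays. CDC45, which joins the MCM ring in the active helicase, differed by -0.13 (-0.41 to 0.15), and by -0.045 without HP replicate 2, its highest array at 8.31. RRM1, the large subunit of ribonucleotide reductase, which makes DNA precursors, differed by -0.01 (-0.32 to 0.29). Its small subunit RRM2, at background on several arrays, differed by 0.27 (-0.89 to 1.42). MCM4 was above background on 2 LP arrays and no HP array, so no fold is given.

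The cyclins of G2 and mitosis did not pass. For CCNB1, the cyclin B1 that activates CDK1 at the start of mitosis, the HP levels were 5.49, 6.26, 5.54, 6.10, 4.54 and 5.43. The LP levels were 4.66, 4.93, 4.75, 4.06 and 5.81. LP replicate 5 lay above 4 of the HP pigs and HP replicate 5 below 4 of the LP pigs, so the diets overlapped. CCNB1 averaged 5.56 ± 0.61 (SD, n = 6) in HP and 4.84 ± 0.63 (SD, n = 5) in LP, a difference of -0.72 (SE 0.35, limma p = 0.0663, exact permutation p = 0.0887). It passed without HP replicate 5 (-0.92) or LP replicate 5 (-0.96), and ran from -0.96 to -0.52 with single arrays left out. CCNB2, the cyclin B2, was above background on 2 of 6 HP arrays and no LP array, and no fold is given.

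CCNA2, the cyclin A2 of S phase and G2, had differences of the opposite sign. It read 2.02, 3.89, 3.76, 4.45, 3.11 and 2.18 in HP. In LP it read 4.15, 4.19, 3.35, 2.30 and 3.66. The spread within each diet exceeded the difference of 0.30 (SE 0.50, exact permutation p = 0.595), and 4 arrays of each diet lay above background.

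CKS2, a small subunit that binds CDKs, separated the diets fully. The HP pigs had levels of 10.37, 10.03, 9.98, 9.90, 9.98 and 10.45. The LP pigs had levels of 9.85, 9.53, 9.85, 9.36 and 9.43. All LP pigs lay below all HP pigs, a separation that 0.37% of all genes showed. The difference was -0.52 (SE 0.15, limma p = 0.00604, exact permutation p = 0.00216, the smallest that 462 splits of the pigs can give). Its close relative CKS1B differed by -0.15 (95% interval -0.41 to 0.11). Of the CDC25 phosphatases that switch CDKs on, CDC25B differed by -0.25 (-0.63 to 0.13), or -0.13 without HP replicate 2, and CDC25C, at background on most arrays, by 0.60 (-0.69 to 1.89).

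In the spindle checkpoint, MAD2L1, which holds back anaphase until chromosomes are attached, was lower in LP. Its HP levels were 8.71, 8.73, 8.14, 8.63, 8.21 and 8.68. Its LP levels were 7.48, 8.06, 8.20, 8.13 and 8.07. All 5 LP pigs lay below the HP mean and 5 of the 6 HP pigs lay above every LP pig, with LP replicate 1 the lowest by a wide gap. The mean was 8.51 ± 0.27 (SD, n = 6) in HP and 7.99 ± 0.29 (SD, n = 5) in LP, which differ by -0.53 (SE 0.17, limma p = 0.0114, exact permutation p = 0.0130). BUB3, another checkpoint protein, differed by -0.19 (95% interval -0.55 to 0.17). It passed without HP replicate 3 (-0.29), and ran from -0.29 to -0.09 with single arrays left out.

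The anaphase-promoting complex, which marks mitotic proteins for breakdown, gave no call in limma. CDC23, one of its subunits, differed by 0.29 (SE 0.14, limma p = 0.0589, exact permutation p = 0.0238), with all 5 LP pigs above the HP mean. It passed as higher in LP in the exact test, after quantile normalisation of the arrays (0.32), and without HP replicate 2 (0.33) or 4 (0.34). With single arrays left out the CDC23 difference ran from 0.20 to 0.34. CDC26, a small subunit, differed by -0.12 (95% interval -0.45 to 0.20). CDC20, its activator, differed by -0.11 (-1.65 to 1.43) and was above background on 3 arrays of each diet.

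BIRC5 (survivin) also separated the diets fully. In HP it measured 7.52, 7.46, 7.16, 7.56, 7.31 and 7.35. In LP it measured 7.06, 7.10, 7.15, 7.01 and 6.91. The lowest HP pig and the highest LP pig lay close together, and no value overlapped. BIRC5 fell from 7.39 ± 0.15 (SD, n = 6) to 7.04 ± 0.09 (SD, n = 5), by 0.35 (SE 0.11, limma p = 0.00780, exact permutation p = 0.00433). The 3 HP arrays with the brightest upper end gave its 3 highest levels, and they were 3 of the 4 highest for MAD2L1.

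Its partner in the passenger complex, the kinase AURKB, differed by 0.31 (95% interval -0.83 to 1.44), with 5 HP and 4 LP arrays above background. AURKA, the Aurora kinase of the spindle poles, differed by -0.34 (-0.77 to 0.09), with all 5 LP pigs below the HP mean. The AURKA difference was -0.22 without HP replicate 3 and -0.20 without LP replicate 4. A dimmer AURKA probe set, above background on 3 HP arrays and 1 LP array, differed by 0.03. PLK1, the Polo kinase of mitotic entry, differed by 0.05 (-0.89 to 0.98).

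TOP2A, the topoisomerase that untangles sister chromosomes, was read at 6.17, 7.48, 6.17, 5.35, 5.66 and 5.65 in HP. It was read at 5.56, 5.07, 6.07, 4.94 and 6.39 in LP. HP replicate 2 stood above every other pig, and the remaining pigs overlapped. The TOP2A difference was -0.47 (SE 0.40, limma p = 0.256, exact permutation p = 0.318), and -0.19 without HP replicate 2. Of the centromere genes, CENPF differed by -0.75 (95% interval -1.91 to 0.41), or -0.36 without HP replicate 2. CENPH differed by -0.28 (-0.94 to 0.38), CENPB by -0.13 (-0.47 to 0.22), CENPO by -0.12 (-0.76 to 0.52) and CENPI by 0.00 (-0.43 to 0.43). KIF20A, a kinesin of cytokinesis, differed by 0.16 (-1.37 to 1.70). No centromere or kinesin gene of this group passed. CENPH did so without HP replicate 4 (-0.51), and ran from -0.51 to -0.18 with single arrays left out.

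**Figure D3:**
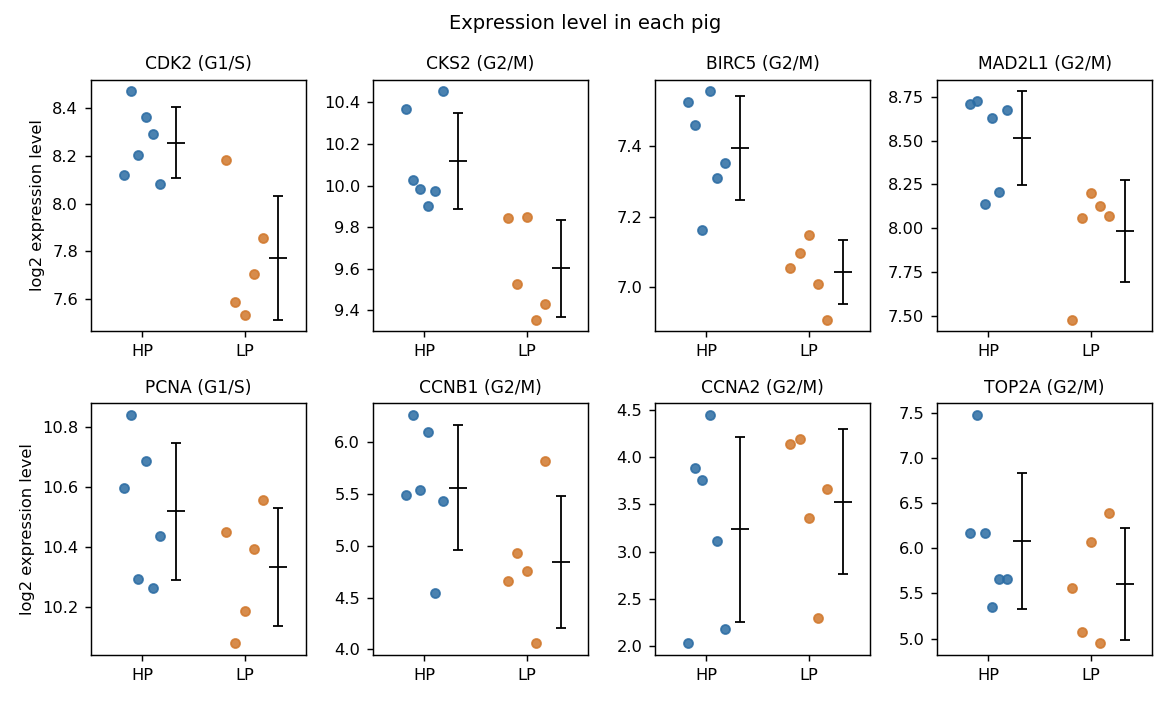
Log2 expression level of 8 cell cycle genes in each HP (blue) and LP (orange) pig, with the mean and SD of each diet beside the points, on a separate scale for each gene that does not start at 0. CKS2 and BIRC5 do not overlap between diets, CDK2 and MAD2L1 each overlap by 1 LP pig, and PCNA, CCNB1, CCNA2 and TOP2A overlap widely.

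Across the pigs, HP replicate 2 stood highest. It gave the highest of the 11 values for 10 of the 24 G2/M genes and 6 of the 12 G1/S genes, and lay above the gene's mean for all 24 G2/M genes. The median deviation of the G2/M genes from their means ran from -0.13 to 0.64 in HP and from -0.42 to 0.01 in LP. HP replicate 2 was the highest of these and LP replicate 4 the lowest, and the diets overlapped. For the G1/S genes it ran from -0.13 to 0.33 in HP, again with HP replicate 2 on top, and from -0.24 to 0.05 in LP. Without HP replicate 2 the median difference was -0.06 over the G1/S genes and -0.13 over the G2/M genes, and all 4 called genes still passed.

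**Figure D4:**
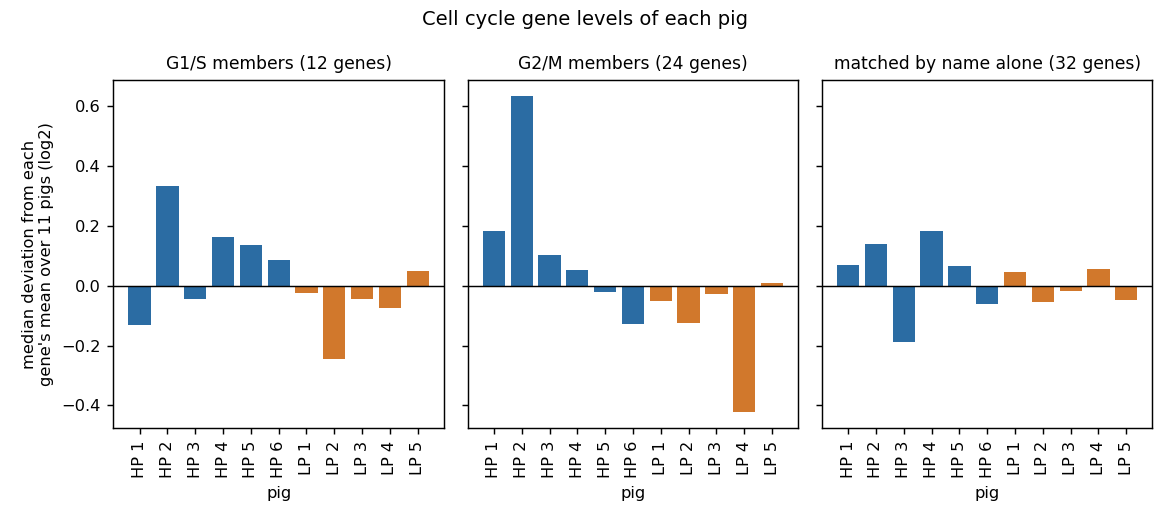
Median over genes of the deviation from each gene's mean over the 11 pigs (log2, bars from 0), for the G1/S genes, the G2/M genes and the genes matched by name alone, HP in blue and LP in orange. HP replicate 2 reaches 0.64 and LP replicate 4 falls to -0.42 in the G2/M genes, and the genes matched by name alone stay between -0.19 and 0.18.

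With HP replicates 1, 2 and 4 left out together, a setting chosen with array values known, CDK2 (-0.42) and CKS2 (-0.54) still passed, and AURKA (-0.54) passed as well. BIRC5 (-0.23) and MAD2L1 (-0.35) did not. The median difference was then -0.04 over both the G1/S and the G2/M genes and 0.06 over all genes.

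Other genes of the same phases, outside the 68, were counted in the same fit. These lists were set with earlier results of these data known, and hold genes that the study named from the same pigs, among them RACGAP1, NUSAP1 and CLSPN. Among all genes 3.16% were lower, 57.5% lay below 0 and the median was -0.04. Of 21 measured G2/M genes, 4 were lower (19.0%) and none higher, with a median of -0.18 and 16 below 0 (76.2%). RACGAP1, which directs cytokinesis, differed by -0.50 (SE 0.16, exact permutation p = 0.00433). NUSAP1, a spindle protein, differed by -0.50 (exact permutation p = 0.0346), SPC25, of the kinetochore, by -0.80 (exact permutation p = 0.0433), and CDCA3, which triggers mitotic entry, by -0.40 (exact permutation p = 0.0325). Of 26 measured G1/S and replication genes, 2 were lower (7.69%) and none higher, with a median of -0.02 and 14 below 0 (53.8%). These were CLSPN, a replication checkpoint protein, at -0.57 (limma p = 0.0349, exact permutation p = 0.0541), and the DNA ligase LIG1 at -0.26 (limma p = 0.0435, exact permutation p = 0.0152).

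None of 16 measured CDK inhibitors, pocket proteins and checkpoint genes was called, where 3.16% of all genes were lower and 1.57% higher. Their median was -0.17 and 11 lay below 0 (68.75%), beside -0.04 and 57.5% over all genes. CDKN1A (p21), which blocks CDKs and is high in muscle fibres that have left the cycle, differed by -0.40 (SE 0.19, limma p = 0.0570, exact permutation p = 0.0498). CDKN1B (p27) differed by -0.16 (exact permutation p = 0.351).

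Of the 32 genes matched by name alone, 2 were lower, none was higher, 15 lay below 0 and the median difference was 0.01, where 3.16% of all genes were lower and 57.5% lay below 0. CDK2AP2, which binds CDK2, read 8.61, 8.65, 8.80, 8.94, 8.79 and 8.67 in HP. It read 8.35, 8.41, 8.48, 8.56 and 8.06 in LP. No LP pig reached the lowest HP pig. The CDK2AP2 difference was -0.37 (SE 0.12, limma p = 0.00999, exact permutation p = 0.00216). PLK3, a Polo kinase of the stress response, differed by -1.45 (SE 0.65, limma p = 0.0467, exact permutation p = 0.0714) but was above background on 2 HP arrays and 1 LP array. The transcription kinases CDK13 (-0.23, limma p = 0.0745) and CDK9 (-0.20, limma p = 0.0987) did not pass in limma, and their exact permutation p were 0.0476 and 0.0411. CDC42 itself differed by -0.06 (95% interval -0.41 to 0.29).

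Markers of the cells that a muscle sample can hold were read beside these genes. All 11 muscle fibre markers had differences below 0, with a median of -0.23, and none was called. Their mean level was highest in HP replicates 4, 2 and 1 (13.9, 13.8 and 13.7) and lowest in HP replicate 3 (12.9). The 99th percentile of the array was likewise highest in HP replicates 4, 2 and 1 and lowest in HP replicate 3. That percentile differed by -0.18 between the diets (exact permutation p = 0.260). Whether the 11 marker differences are separate from it, or from each other, was not tested. Of 14 satellite cell markers listed, 8 were measured, and PAX7, MYOG, CDH15, ITGA7, MEGF10 and CHRDL2 were not. Of the 8 measured markers, all above background on all arrays, none was called and the median was -0.08. They ran from -0.33 (VCAM1, SE 0.25, all 5 LP pigs below the HP mean) to 0.24 (CALCR, SE 0.28). The mean level of the satellite cell markers per array ran from 7.24 to 7.62 in HP and from 7.09 to 7.59 in LP. None of 12 endothelial (median -0.06) or 12 fibroblast markers (median -0.25) was called, with mean levels per array of 7.78 to 8.34 in HP against 7.78 to 8.20 in LP and 8.87 to 9.49 against 8.83 to 9.31. Differences lay below 0 for 9 of 12 fibroblast, 7 of 10 macrophage and all 11 muscle fibre markers, and for 57.5% of all genes. Of the adipocyte markers 4 of 10 lay below 0, and of the lymphocyte markers 5 of 11. Among the 12 fibroblast markers 6 had all LP pigs below the HP mean. So had 3 of the 12 G1/S genes, 6 of the 24 G2/M genes and 4 of the 32 genes matched by name alone. This share was not counted over all genes, so whether 6 of 12 is unusual cannot be said. Nearest to the threshold among the fibroblast markers were DCN (-0.28, limma p = 0.0525, exact permutation p = 0.0346), MFAP5 (-0.50, exact permutation p = 0.0519) and FN1 (-0.39, exact permutation p = 0.0714). The 3 fibroblast markers above 0 were POSTN (0.25), LUM (0.08) and TCF21 (0.08, above background on 1 HP array only).

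Of 10 macrophage markers (median -0.26), MARCO was called higher, and of 11 lymphocyte markers (median 0.03), CD79B was called lower, but neither was above background on any array. Mean levels per array ran from 5.66 to 6.35 in HP and 5.65 to 6.38 in LP for macrophage markers, and from 2.46 to 3.96 and 2.59 to 3.28 for lymphocyte markers. These means include values at background, since 7 of 10 macrophage and 5 of 11 lymphocyte markers lay above it on all arrays. Of 10 adipocyte markers, SCD, a lipogenic desaturase, was higher (1.84, SE 0.66, exact permutation p = 0.0195), the list's median was 0.08, and its mean level ran from 6.45 to 7.07 in HP and from 6.77 to 7.25 in LP. No red blood cell marker of 4 was called (median 0.15). HBB, alone among them above background on all arrays, differed by 0.13 (SE 0.14). HBE1 and AHSP were above background on no array, so the mean level of the 4 includes values at background. It ran from 2.53 to 3.52 in HP and 2.44 to 3.86 in LP. The part of cell make-up in the cell cycle differences was not tested.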

How the data were processed

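The authors deposited 1 log2 expression value for each probe set and array. They worked in R and Bioconductor and estimated differences with puma, and how background was corrected and arrays normalised is not given in the sources used here. After removal of 124 controls, 23999 probe sets were tested, of which 10069 had 1 symbol, 198 several and 13732 none in the platform annotation. All 68 symbols and gene IDs matched the RefSeq gene table of assembly Sscrofa11.1.

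LP minus HP was fitted in R 4.3.3 with limma 3.58.1 (lmFit, eBayes with a constant prior, two-sided) over all probe sets, without blocks, after a test on simulated data. Calls used an unadjusted limma p of 0.05. The study set the same number on P-like values of puma, a different statistic that needs probe-level data. Benjamini-Hochberg adjustment was counted separately. Single genes were also tested by a two-sided exact permutation over 462 splits of the pigs. The number of arrays limits the precision. The negative controls were the Tag and TrpnX sets. The Bacillus sets first planned for this were bright, as spike-ins are, and were not used as such.

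Members, phases and lists were chosen with earlier results of these data known. Every G1/S and G2/M gene could be named. Values of every array are given for called genes above background on all arrays of a diet and for CCNB1, CCNA2, TOP2A and PCNA, and from other lists the called genes with the smallest p, at most 6 each. Genes outside this rule (CDKN1A, CDKN1B, CDK9, CDK13, CDC42, VCAM1, CALCR, DCN, MFAP5, FN1, POSTN, LUM and TCF21) were picked with their values known. Alternatives were quantile normalisation, median centring, a filter on dim probe sets, a floor at the 20th percentile, weighted arrays, a trended robust prior, the exact test, the mean of all probe sets, a block for the replicate number and leaving out single arrays. Leaving out HP replicates 1, 2 and 4 together was added with the array values known. Promoters and proteins were not analysed here, nor were probe-level intensities.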

Additional observations from a re-analysis of the deposited data

Results flagged for a closer look

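Among 72 sets of values, 36 genes in each of 2 diets, 3 held a pig whose gap to the others, as a share of the range, exceeded Dixon's 95% limit (0.71 in a set of 5 arrays), and chance alone flags about 1 set in 20. All 3 were LP pigs at the low end, and a different pig each time. For MAD2L1 in LP the gap to LP replicate 1, at 7.48, took a share of 0.801 of the range, and without that pig the gene still passed. For AURKA in LP the gap to LP replicate 4, at 3.90, took 0.890, and without that pig the difference was -0.20 in place of -0.34. For AURKB in LP the gap to LP replicate 5, at 2.63 and not above background, took 0.907, and without that pig the difference was 0.67 in place of 0.31.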

How the results depend on the processing

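Over 21 alternatives, 4 values of called genes lost their call: CDK2 with all its probe sets averaged (-0.13), MAD2L1 with the replicate number as a block (-0.50), and BIRC5 (-0.23) and MAD2L1 (-0.35) without the 3 brightest HP arrays. Another 23 values, of 8 genes, passed where they had not before. CDC23 made 1 G2/M gene higher in LP under quantile normalisation, the filter on dim probe sets, the floor, the trended prior, array weights, the exact permutation test and without the 3 brightest HP arrays. The G1/S genes lower in LP numbered 2 with the floor and with the trended prior, 3 with array weights and 0 with all probe sets averaged. With single arrays left out they numbered 1 to 3 (3 without HP replicate 4, 2 without HP replicate 5). The G2/M genes lower then numbered 3 to 5. The 5 came without LP replicate 5, with CCNB1 added and CCNB2, which was above background on no LP array. The G2/M genes higher numbered 0 to 1 (1 without HP replicate 2 or 4). Over all 23999 probe sets, those lower then ran from 569 to 1003 and those higher from 424 to 755. With all arrays they numbered 712 and 515. The filter on dim probe sets left 6 G1/S and 9 G2/M genes, of which 5 and 8 lay below 0. Group medians stayed below 0 under all alternatives run, and between -0.21 and -0.06 (G1/S) and -0.25 and -0.13 (G2/M) with single arrays left out. The median over all genes turned to 0.06 without the 3 brightest HP arrays.

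Of 735 values of single genes, 46, of 14 genes, changed sign, and none of them passed before or after the change. These were CDC34 (0.0087) and RRM1 (0.016) under quantile normalisation. With the floor, MCM4 (0.0037), KIF20A (-0.46), CDC20 (0.10) and PLK1 (-0.12) did so. Array weights turned RRM1 (0.046), PLK1 (-0.17) and CENPI (-0.059), and averaged probe sets turned MCM2 (0.091). Without the 3 brightest HP arrays it was PCNA (0.0018), CDC34 (0.19), RRM2 (-0.36), MCM2 (0.018), RRM1 (0.0085), BUB3 (0.0080), CENPT (0.40), CENPB (0.034), CENPO (0.34), CDC20 (0.23), PLK1 (-0.030) and CENPI (-0.041). With single arrays left out the ranges that crossed 0 were -0.48 to 0.29 (CDC20), -0.23 to 0.56 (KIF20A), -0.18 to 0.094 (CENPI), -0.25 to 0.037 (CENPO), -0.26 to 0.22 (PLK1), -0.082 to 0.046 (RRM1) and -0.023 to 0.65 (RRM2). The cause was not tested.

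No source used here says whether the replicate numbers pair the pigs. The correlation of deviations between HP and LP pigs of the same number ran from -0.07 to 0.08. For HP replicates 4 and 5 the closest LP pig bore the same number, and for HP replicates 1, 2 and 3 another. So few pairs cannot settle whether the numbers follow the weight blocks. With the replicate number as a block, 1 G1/S and 2 G2/M genes were lower, and PLK1 turned to -0.027.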
